A study of Mus musculus with 12 samples.

Results

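The 9 genes described here mark or act in the distal convoluted tubule of the kidney: Slc12a3, Pvalb, Trpm6, Calb1, Trpv5, Slc8a1, Wnk1, Wnk4 and Klhl3. They were chosen by symbol, and all 9 were found among the 44792 genes of the deposited count table. All 9 also passed the filter on low counts, as did 17019 genes in all. RNA was sequenced from primary tubular epithelial cells isolated from the renal cortex of C57BL/6 mice, in 4 groups of 3 libraries, 1 library to a mouse by the series' design text. MYC-OE SETD2-KO mice carried the Ksp1.3/cre driver with floxed MYC and floxed Setd2 alleles (Ksp1.3/cre; MYCfl/fl;Setd2fl/fl). MYC-OE mice carried the driver and the floxed MYC allele alone, SETD2-KO mice the driver and floxed Setd2 alone, and WT mice floxed Setd2 with no driver (Setd2fl/fl). The floxed Setd2 allele was therefore shared by every group other than MYC-OE, and no group in these data carried the driver without a floxed allele. Setd2 encodes the methyltransferase that trimethylates lysine 36 of histone H3, while MYC, a transcription factor, promotes cell growth. The driver uses the promoter of Ksp-cadherin, a cadherin of kidney tubule epithelium, so that recombination is limited to cells in which it is active. The sources used here give no age.

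The distal convoluted tubule follows the thick ascending limb and reabsorbs sodium chloride through the thiazide-sensitive cotransporter NCC, the product of Slc12a3. NCC is switched on by a kinase cascade in which WNK kinases activate SPAK and OSR1, and KLHL3, the substrate adaptor of a cullin 3 ubiquitin ligase, marks WNK kinases for degradation. The same segment takes up magnesium through TRPM6. Its last part and the connecting tubule move calcium across the cell, which enters by TRPV5, is carried by calbindin-D28k (Calb1) and leaves by the sodium-calcium exchanger NCX1 (Slc8a1).

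The libraries differed by more than genotype. Total counts ranged from 8889185 to 14314434 in MYC-OE SETD2-KO, 15712963 to 17132375 in MYC-OE, 16657538 to 41608501 in SETD2-KO and 22997852 to 44227191 in WT. Mitochondrial ribosomal RNA split the libraries into 3 sets. For ribosomal RNA, CPM means counts relative to the library's total. For the levels of all other genes it is also scaled by edgeR's TMM method. Set 1, with 15016 to 19622 CPM, held WT 1, 2 and 3 and SETD2-KO 1 and 2. Set 2, with 975 to 2909 CPM, held MYC-OE 1 and MYC-OE SETD2-KO 1 and 2. Set 3, with 0.509 to 1.26 CPM, held MYC-OE SETD2-KO 3, MYC-OE 2 and 3 and SETD2-KO 3. Xist without Y-chromosome transcripts was found in MYC-OE SETD2-KO 1 and 3 and SETD2-KO 3, and Y-chromosome transcripts in the other 9 libraries. Genotype, set and sex therefore overlap, and a fit that adds the 3 sets as a term (the set term) stands beside the fit by group. In that fit SETD2-KO against WT is estimated within set 1, while MYC-OE against WT and MYC-OE SETD2-KO against SETD2-KO rest on SETD2-KO 3, the single library that ties set 1 to the others, so set and sex cannot be told apart there. Setd2 stood at 51.1 to 80.6 CPM in MYC-OE SETD2-KO, 56.8 to 62.1 in MYC-OE, 58.9 to 79.0 in SETD2-KO and 70.9 to 86.4 in WT, and did not pass the test in any comparison. Counts over the whole gene do not check the deletion, because the floxed exons are not named in the sources used here. Myc stood at 2.27 to 14.0 CPM in MYC-OE SETD2-KO, 3.22 to 4.89 in MYC-OE, 2.73 to 3.99 in SETD2-KO and 3.11 to 3.44 in WT, also with no call, and whether the table counts the MYC construct is not known.

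Promoter windows of 4 of the genes are shown because Klhl3 was the member closest over the libraries both to Slc12a3 and to Wnk1, while Trpv5 was the 1 member called by group. Each runs from 250 bases before to 50 bases after a RefSeq transcript start (GRCm38.p6), on the gene's strand, with any TATAAA in capitals.
Slc12a3, chr8:94328958-94329257, plus strand: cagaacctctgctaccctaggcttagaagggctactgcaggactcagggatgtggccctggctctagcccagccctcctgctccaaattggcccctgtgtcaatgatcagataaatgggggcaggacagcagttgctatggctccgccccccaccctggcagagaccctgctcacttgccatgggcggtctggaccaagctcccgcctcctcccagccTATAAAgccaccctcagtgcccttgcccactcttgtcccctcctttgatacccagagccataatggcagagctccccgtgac
Klhl3, chr13:58113598-58113897, minus strand: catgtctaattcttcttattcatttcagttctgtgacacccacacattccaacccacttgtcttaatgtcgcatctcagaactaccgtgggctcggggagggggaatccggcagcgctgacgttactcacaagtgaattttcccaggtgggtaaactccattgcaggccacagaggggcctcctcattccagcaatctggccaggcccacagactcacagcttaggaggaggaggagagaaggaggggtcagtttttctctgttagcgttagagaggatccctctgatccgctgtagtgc
Wnk1, chr6:120038606-120038905, minus strand: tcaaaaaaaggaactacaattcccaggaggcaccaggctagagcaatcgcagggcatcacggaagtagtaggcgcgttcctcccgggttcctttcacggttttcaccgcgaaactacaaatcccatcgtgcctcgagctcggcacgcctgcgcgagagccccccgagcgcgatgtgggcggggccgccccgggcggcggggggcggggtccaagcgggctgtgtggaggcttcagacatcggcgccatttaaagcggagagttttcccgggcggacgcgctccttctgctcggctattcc
Trpv5, chr6:41680674-41680973, minus strand: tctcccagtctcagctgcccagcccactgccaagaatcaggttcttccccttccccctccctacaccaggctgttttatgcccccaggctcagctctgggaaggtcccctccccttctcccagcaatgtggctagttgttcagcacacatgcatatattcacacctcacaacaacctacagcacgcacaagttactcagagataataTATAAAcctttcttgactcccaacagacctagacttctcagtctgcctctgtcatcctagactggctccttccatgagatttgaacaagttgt
TATAAA, the core of the TATA box, began 32 bases before the start in Slc12a3 and 43 bases before it in Trpv5, and was found on the strand of the gene in both. It lay in none of the other windows of the members, which numbered 9 over the 8 members with an entry. Both strands were searched, and it was found in 13.6% of all 32851 windows of this length. The windows of Wnk1 and Wnk4 and the second of the 2 windows of Pvalb held 32, 21 and 25 CpG against a median of 7 over all windows, while Slc12a3 held 4 and Trpv5 held 1. No window of a member held CACGTG, an E-box bound by MYC, or GTTAAT, a half-site of HNF1 factors. Over all windows 7.15% held the E-box and 7.1% the half-site. The windows of Klhl3, Trpv5 and Trpm6 and the second window of Pvalb lie inside the gene as the deposited table draws it. There the starts of these genes are drawn farther upstream.

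In WT cells the cotransporter stood highest of the 9 genes per length. On the scale of CPM per kilobase of the deposited isoform length, Slc12a3 averaged 198 ± 20.8 in WT (SD, n = 3), Calb1 135 ± 19.3, Wnk1 48.8 ± 13.3 and Wnk4 36.2 ± 2.73. Pvalb followed at 22.8 ± 5.27 CPM per kilobase, Slc8a1 at 9.47 ± 3.17, Klhl3 at 8.02 ± 1.83, Trpv5 at 4.44 ± 0.365 and Trpm6 at 2.94 ± 0.948. Slc8a1 and Klhl3 overlapped in WT, at 6.61 to 12.9 and 6.45 to 10 CPM per kilobase, and the other neighbours in this order did not. Wnk1 and Wnk4 nearly met at 38.4 and 38.1, as did Trpv5 and Trpm6 at 4.08 and 4.04. For scale, Slc12a1, the cotransporter of the thick ascending limb, averaged 91.2 ± 11 CPM per kilobase in WT, and Slc34a1, the phosphate transporter of the proximal tubule, 2600.5 ± 356. Both defining genes of the segment, Slc12a3 and Pvalb, were thus read in all 3 WT libraries, in a preparation in which proximal tubule transcripts stood far higher.

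**Figure D1:**
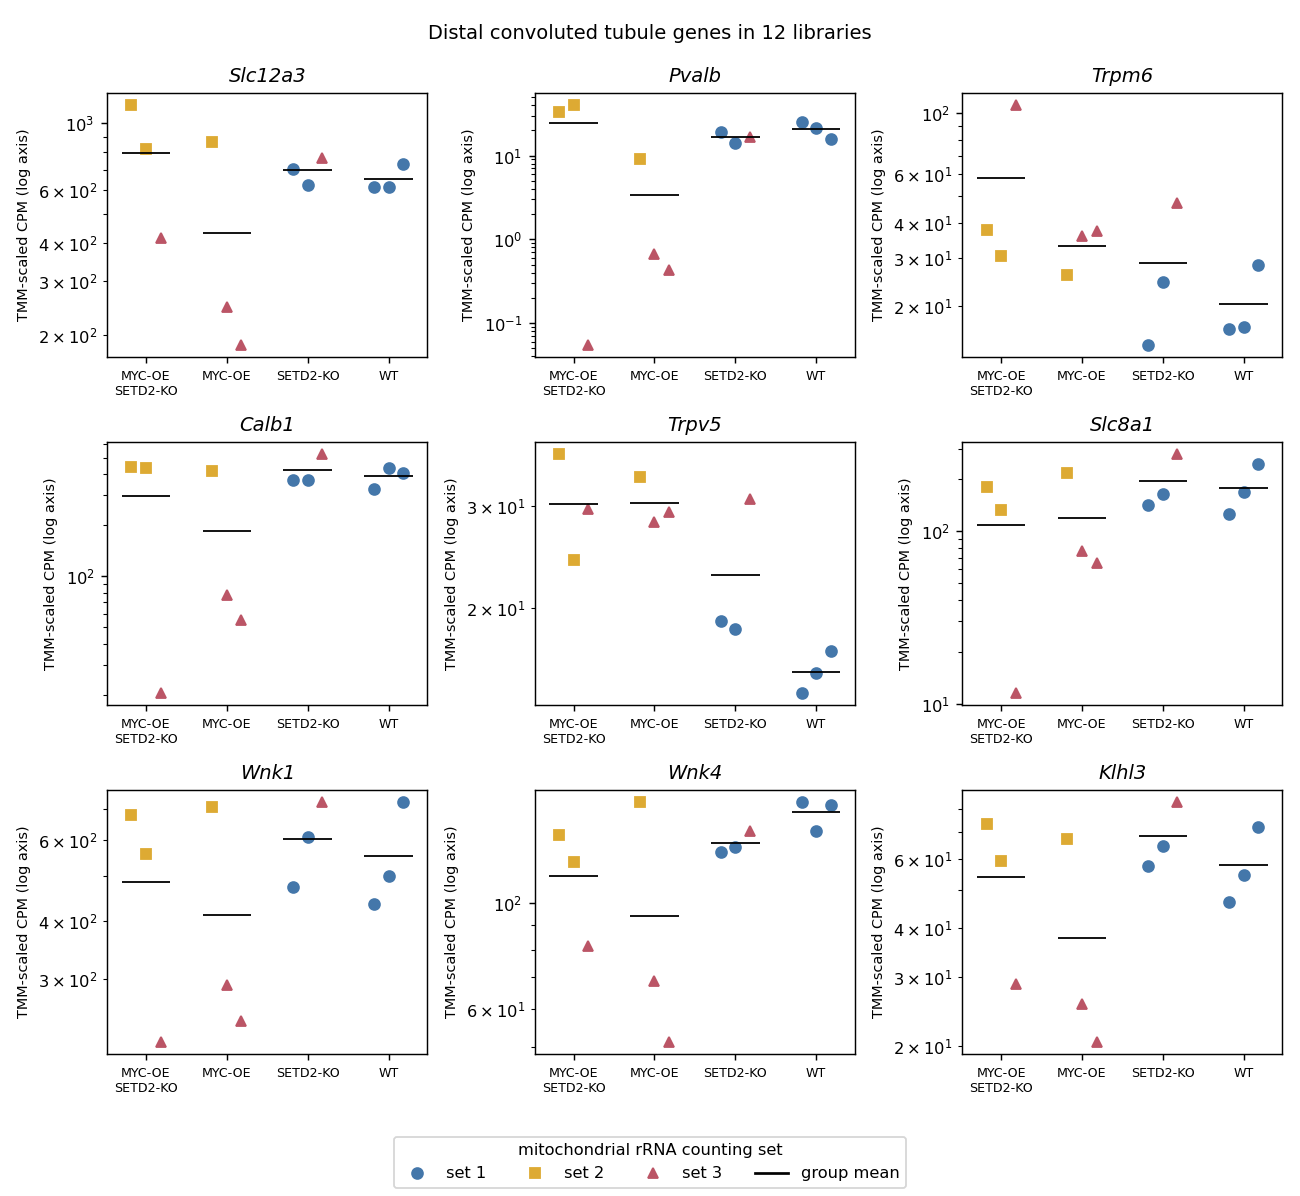
TMM-scaled CPM (log axis) of the 9 genes in each of the 12 libraries, by group, with marker shape and colour for the mitochondrial rRNA set and a line at the group mean. The libraries of set 3 from MYC-OE and MYC-OE SETD2-KO lie lowest for 7 of the 9 genes, while SETD2-KO 3, also of set 3, lies with or above the other SETD2-KO and WT libraries.

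Slc12a3 (chromosome 8, 94329109 to 94366222, plus strand) differed more among MYC libraries than between genotypes. It stood at 1146, 818 and 418 CPM in MYC-OE SETD2-KO 1, 2 and 3, and at 866, 246 and 185 CPM in MYC-OE 1, 2 and 3. SETD2-KO 1, 2 and 3 held 706, 622 and 763 CPM, and WT 1, 2 and 3 held 615, 614 and 733 CPM. The lowest 3 libraries, MYC-OE 2 and 3 and MYC-OE SETD2-KO 3, all belong to set 3, and the highest 3 are the libraries of set 2. MYC-OE 1 held 4.02 times the mean of MYC-OE 2 and 3, and both MYC groups overlapped WT and SETD2-KO. The log2 fold change was -0.60 ± 0.56 (SE) in MYC-OE against WT, with an edgeR quasi-likelihood adjusted p of 0.441. It was 0.88 ± 0.56 in MYC-OE SETD2-KO against MYC-OE, with an edgeR adjusted p of 0.569, 0.19 ± 0.55 in MYC-OE SETD2-KO against SETD2-KO and 0.09 ± 0.55 in SETD2-KO against WT. The value against WT was weaker with MYC-OE 1, which lay above every WT library while MYC-OE 2 and 3 lay below. Without MYC-OE 1 the log2 fold change was -1.59 (edgeR adjusted p = 0.0261), and MYC-OE SETD2-KO against MYC-OE gave 1.86 (edgeR adjusted p = 0.0474). MYC-OE then held libraries of set 3 alone and WT those of set 1 alone, so genotype and set cannot be told apart between them. Without the 4 libraries of set 3 the value against WT was 0.44 (edgeR adjusted p = 0.217), from the single MYC-OE library left, which is assumed to vary like the others. That library is of set 2 and WT of set 1, so genotype and set cannot be told apart there either. Scaled by total counts alone, with all libraries kept, the value against WT was 0.03. Since these are bulk libraries, fewer distal convoluted tubule cells and less of a transcript per cell cannot be told apart.

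Pvalb (chromosome 15, 78191117 to 78206351, minus strand) encodes parvalbumin, a cytosolic calcium buffer of the early distal convoluted tubule, and ranged furthest of the 9 genes. It was read at 33.0 and 40.1 CPM in MYC-OE SETD2-KO 1 and 2 and at 1 count in MYC-OE SETD2-KO 3, which is 0.0549 CPM (exact Poisson interval for the count 0.0253 to 5.57, 95%, counting error only). MYC-OE 1, 2 and 3 held 8.97, 0.661 and 0.432 CPM. SETD2-KO held 19.2, 14.1 and 16.5 CPM, and WT 25, 21.1 and 15.6 CPM. Every MYC-OE library lay below every WT library, as was the case for 25% of the genes tested, and MYC-OE 1 lay below each SETD2-KO library too. MYC-OE SETD2-KO held both the 2 highest libraries of all and the lowest. Over so wide a spread no comparison passed the test: the log2 fold change was -2.62 ± 1.48 in MYC-OE against WT (edgeR adjusted p = 0.216), 2.86 ± 1.49 in MYC-OE SETD2-KO against MYC-OE (edgeR adjusted p = 0.463), 0.55 ± 1.39 in MYC-OE SETD2-KO against SETD2-KO and -0.31 ± 1.38 in SETD2-KO against WT. With the set term MYC-OE against WT gave -5.88 ± 0.95 (edgeR adjusted p = 0.0247) and MYC-OE SETD2-KO against SETD2-KO -4.60 ± 0.91 (edgeR adjusted p = 0.0185). Without the libraries of set 3 Pvalb passed in 4 of the 5 comparisons: -1.15 in MYC-OE against WT, 2.00 in MYC-OE SETD2-KO against MYC-OE, 1.13 in MYC-OE SETD2-KO against SETD2-KO and 2.28 for the interaction (edgeR adjusted p = 0.0374, 0.0173, 0.0282 and 0.043). The sign of MYC-OE SETD2-KO against SETD2-KO thus depended on how set 3 was treated, and in the first 2 and the last of these MYC-OE is the 1 library left. Without set 3, MYC-OE against WT and MYC-OE SETD2-KO against SETD2-KO compared libraries of set 2 with libraries of set 1. Genotype and set cannot be told apart in them.

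Trpm6 (chromosome 19, 18730258 to 18892521, plus strand), the channel kinase through which magnesium enters, stood highest in 2 libraries of set 3, MYC-OE SETD2-KO 3 and SETD2-KO 3. It was read at 37.9, 30.5 and 107 CPM in MYC-OE SETD2-KO 1, 2 and 3, 25.9, 36.0 and 37.5 CPM in MYC-OE, 14.5, 24.5 and 47.2 CPM in SETD2-KO, and 16.5, 16.8 and 28.1 CPM in WT. MYC-OE SETD2-KO 3 held 3.13 times the mean of its group's other libraries, and SETD2-KO 3 held 2.42 times that of SETD2-KO 1 and 2. MYC-OE SETD2-KO lay above all 3 WT libraries, while every pair of groups compared overlapped. No comparison passed the test. The log2 fold change was 1.03 ± 0.53 in MYC-OE SETD2-KO against SETD2-KO (edgeR adjusted p = 0.569), 0.82 ± 0.53 in MYC-OE SETD2-KO against MYC-OE, 0.70 ± 0.53 in MYC-OE against WT and 0.49 ± 0.52 in SETD2-KO against WT. With the set term the last 2 were -0.22 ± 0.56 and -0.07 ± 0.34.

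Trpv5 (chromosome 6, 41651660 to 41681470, minus strand), the apical calcium channel, was the 1 gene of the 9 that passed the test in any comparison of the fit by group. It stood at 37.0, 24.2 and 29.7 CPM in MYC-OE SETD2-KO 1, 2 and 3, 33.7, 28.2 and 29.3 CPM in MYC-OE, 19.0, 18.4 and 30.9 CPM in SETD2-KO, and 14.2, 15.4 and 16.8 CPM in WT. Every library of the 3 Cre groups lay above all WT libraries. The 5 libraries of set 1 were also the 5 lowest, while those of sets 2 and 3 lay among each other. Trpv5 rose in MYC-OE against WT by 0.97 ± 0.25 on the log2 scale (edgeR quasi-likelihood test, Benjamini-Hochberg adjusted p = 0.0452), a fold of 1.97. There 7.99% of the genes tested were called, 5.62% as higher, and 25.5% had MYC-OE libraries that all lay above the WT libraries. The call was kept without MYC-OE 1 (0.92, edgeR adjusted p = 0.042), where MYC-OE was of set 3 alone. It was lost without any other single library of the 2 groups (edgeR adjusted p between 0.123 and 0.159), with log2 values between 0.90 and 1.04. In those fits between 1 and 3 of all genes tested were called, against 1359 with every library kept. The call on Trpv5 was also lost with the set term (0.20 ± 0.31, edgeR adjusted p = 0.808). Without the libraries of set 3 the value was 1.16, from the single MYC-OE library left, of set 2. WT is of set 1 alone, so genotype and set cannot be told apart without MYC-OE 1 or without set 3. In SETD2-KO against WT the groups did not overlap either, which held for 3.22% of genes in that direction, but the log2 fold change of 0.55 ± 0.24 did not pass (edgeR adjusted p = 1). SETD2-KO 3 held 1.65 times the mean of SETD2-KO 1 and 2, and without that library the value was 0.27. MYC-OE SETD2-KO against MYC-OE gave -0.01 ± 0.24 (edgeR adjusted p = 0.998), and MYC-OE SETD2-KO against SETD2-KO gave 0.41 ± 0.24 (edgeR adjusted p = 0.614).

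Calb1 (chromosome 4, 15881264 to 15906709, plus strand), the calcium carrier of the cytosol, did not follow the channel. MYC-OE SETD2-KO 1, 2 and 3 held 443, 433 and 20.3 CPM, and MYC-OE 1, 2 and 3 held 419, 77.7 and 54.9 CPM. SETD2-KO held 368, 368 and 529 CPM and WT 327, 434 and 404 CPM. MYC-OE 1 and MYC-OE SETD2-KO 1 and 2 lay among the WT and SETD2-KO libraries, and MYC-OE 2 and 3 and MYC-OE SETD2-KO 3 lay far below them, so that the groups overlapped. The log2 fold change was -1.08 ± 0.96 in MYC-OE against WT (edgeR adjusted p = 0.422) and -0.50 ± 0.95 in MYC-OE SETD2-KO against SETD2-KO (edgeR adjusted p = 0.892). With the set term both passed, at -3.31 ± 0.55 (edgeR adjusted p = 0.0254) and -4.05 ± 0.51 (edgeR adjusted p = 0.00577). Without the libraries of set 3 they were 0.15 and 0.25, and each then compared set 2 with set 1.

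Slc8a1 (chromosome 17, 81373105 to 81738387, minus strand), the basolateral exchanger, split in the same libraries. It stood at 179.7, 133 and 11.5 CPM in MYC-OE SETD2-KO 1, 2 and 3, 216, 76.4 and 65.5 CPM in MYC-OE, 142, 164 and 281 CPM in SETD2-KO, and 125, 168 and 243 CPM in WT. SETD2-KO 3 was the highest library of all and MYC-OE SETD2-KO 3 the lowest, and both are of set 3. The log2 fold change was -0.58 ± 0.78 in MYC-OE against WT and -0.86 ± 0.79 in MYC-OE SETD2-KO against SETD2-KO, neither of which passed (edgeR adjusted p = 0.603 and 0.756). The set term gave -3.78 ± 0.65 for MYC-OE SETD2-KO against SETD2-KO (edgeR adjusted p = 0.0127), and the total-count scaling turned MYC-OE against WT to 0.07. Slc8a1 overlaps 1 other locus of the table, which held at most 1 count.

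The regulators of NCC stood low in the same libraries as the cotransporter. Wnk1 (chromosome 6, 119923969 to 120038655, minus strand), a WNK kinase found in many tissues, stood at 679, 558 and 219 CPM in MYC-OE SETD2-KO 1, 2 and 3, 706, 291 and 243 CPM in MYC-OE, 475, 608 and 724 CPM in SETD2-KO, and 435, 501 and 724 CPM in WT. The table gives 1 row for the gene, so its long form and its kidney form cannot be told apart. Wnk4 (chromosome 11, 101260536 to 101277409, plus strand), the WNK kinase of the distal nephron, stood at 139, 122 and 81.3 CPM in MYC-OE SETD2-KO, 163, 68.7 and 51.2 CPM in MYC-OE, 128, 131 and 142 CPM in SETD2-KO, and 163, 142 and 161 CPM in WT. Klhl3 (chromosome 13, 58000226 to 58123481, minus strand) stood at 73.3, 59.3 and 28.8 CPM in MYC-OE SETD2-KO, 67.1, 25.6 and 20.5 CPM in MYC-OE, 57.6, 64.7 and 83.5 CPM in SETD2-KO, and 46.5, 54.6 and 72.2 CPM in WT. In all 3 genes MYC-OE 2 and 3 and MYC-OE SETD2-KO 3 were the lowest libraries of the 12, MYC-OE 1 lay within the span of WT and SETD2-KO or level with its top, and the groups compared overlapped. None passed the test by group. The log2 fold change in MYC-OE against WT was -0.42 ± 0.50 for Wnk1, -0.72 ± 0.38 for Wnk4 and -0.61 ± 0.46 for Klhl3 (edgeR adjusted p = 0.553, 0.19 and 0.34), and with total-count scaling Wnk1 and Klhl3 turned to 0.25 and 0.05. Without MYC-OE 1, Wnk4 at -1.35 (edgeR adjusted p = 0.0107) and Klhl3 at -1.31 (edgeR adjusted p = 0.0385) passed, with MYC-OE then of set 3 alone and WT of set 1 alone. With the set term Klhl3 passed at -1.71 ± 0.34 in MYC-OE against WT (edgeR adjusted p = 0.0389). In MYC-OE SETD2-KO against SETD2-KO the set term gave calls for all 3, at -1.70 ± 0.33 for Wnk1, -1.05 ± 0.28 for Wnk4 and -1.65 ± 0.29 for Klhl3 (edgeR adjusted p = 0.0183, 0.0471 and 0.0129). Wnk1 and Klhl3 each overlap 2 other loci of the table, whose counts reached at most 16 and 5.

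By group, the 9 genes gave 1 call in 5 comparisons. In SETD2-KO against WT 0 of 9 passed edgeR's quasi-likelihood test (1, Trpv5, at an unadjusted p under 0.05, and 0 called by DESeq2 or limma-voom). There 0% of the 17019 genes tested passed (495 at an unadjusted p under 0.05, 57 called by DESeq2, 0 by limma-voom), and the members' median log2 fold change was 0.12 against -0.01 over all genes. Trpv5 alone of the 9 (1 of 9) passed in MYC-OE against WT, beside 7.99% of all genes, with a median of -0.60 against 0 over all genes. MYC-OE SETD2-KO against MYC-OE gave 0 of 9, beside 0.176% of all genes, with a median of 0.51 against 0.05. In MYC-OE SETD2-KO against SETD2-KO 0 of 9 passed, beside 0% of all genes (1624 at an unadjusted p under 0.05, 172 by DESeq2, 0 by limma-voom), with a median of -0.23 against 0.01. The interaction, the difference between the effect of SETD2-KO with MYC-OE and without it, gave 0 of 9, beside 0.0118% of all genes, with a median of 0.33 against 0.05. In these last 3 comparisons 0 of the 9 had an unadjusted p under 0.05, and neither DESeq2 nor limma-voom called any. DESeq2 gave no p for Calb1. All libraries of one group stood above all of the other for 1 of 9 genes higher (Trpv5) and 0 lower in SETD2-KO against WT, beside 3.22% and 3.53% of all genes, and for 1 higher (Trpv5) and 1 lower (Pvalb) in MYC-OE against WT, beside 25.5% and 25%. This held for 0 of 9 genes in MYC-OE SETD2-KO against MYC-OE, beside 5.86% higher and 6.66% lower of all genes, or in MYC-OE SETD2-KO against SETD2-KO, beside 5.56% and 4.41%. The comparisons share groups, so their values are not independent of one another.

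With the set term, calls were made in 2 comparisons. In MYC-OE against WT 3 of 9 genes passed, all lower (Pvalb, Calb1 and Klhl3), where 1.47% of all genes were called lower, and the median was -1.66. In MYC-OE SETD2-KO against SETD2-KO 6 of 9 passed, all lower (Pvalb, Calb1, Slc8a1, Wnk1, Wnk4 and Klhl3), where 5.75% of all genes were called lower, and the median was -1.65. Markers of other tubule cells were called lower in that fit and comparison too: 6 of 8 of the proximal tubule, 3 of 6 of the thick ascending limb, 4 of 7 of the connecting tubule and principal cell and 4 of 6 of the intercalated cell. None of the 5 podocyte and 6 endothelial markers was called there, and 1 macrophage and 1 lymphocyte marker were called higher. SETD2-KO against WT, MYC-OE SETD2-KO against MYC-OE and the interaction gave 0 of 9. Without the 4 libraries of set 3, the members called were Trpv5 higher and Pvalb lower in MYC-OE against WT, where 10.1% of all genes were called higher and 6.2% lower. Pvalb was the 1 member called, as higher, in MYC-OE SETD2-KO against MYC-OE (1.88% of all genes higher), in MYC-OE SETD2-KO against SETD2-KO (4.96%) and in the interaction (0.383%). In these fits without set 3, MYC-OE was MYC-OE 1 alone. Both MYC groups were then of set 2 alone, and WT and SETD2-KO of set 1 alone. Genotype and set cannot be told apart where these are compared. Without MYC-OE 1, Trpv5 was called higher and Slc12a3, Wnk4 and Klhl3 lower in MYC-OE against WT, where 14.8% of all genes were called higher and 10% lower, and Slc12a3 was called higher in MYC-OE SETD2-KO against MYC-OE (0.691%). MYC-OE was then of set 3 alone and WT of set 1 alone, so genotype and set cannot be told apart between them. Within set 3 itself, where no test was made, the means of MYC-OE 2 and 3 stood at 215 CPM against 763 CPM in SETD2-KO 3 for Slc12a3, 66.3 against 529 CPM for Calb1, 23.1 against 83.5 CPM for Klhl3, and 28.8 against 30.9 CPM for Trpv5. Within set 2, MYC-OE SETD2-KO 1 and 2 against MYC-OE 1 stood at 982 against 866 CPM for Slc12a3, 438 against 419 CPM for Calb1, 66.3 against 67.1 CPM for Klhl3, and 36.6 against 8.97 CPM for Pvalb. Within set 1, the ratio of SETD2-KO 1 and 2 to WT lay between 0.812 for Pvalb and 1.21 for Trpv5 over the 9 genes.

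**Figure D2:**
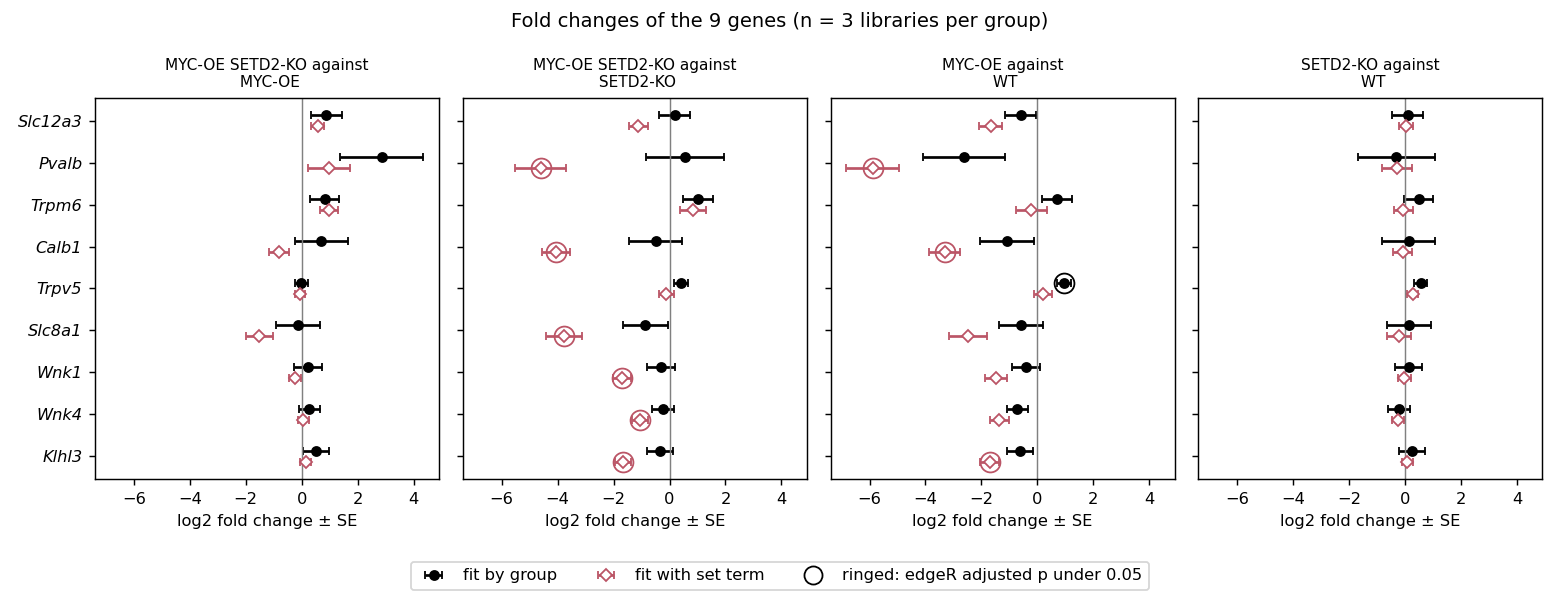
Log2 fold change with its standard error for each of the 9 genes in 4 comparisons (n = 3 libraries per group), from the fit by group (filled circles) and the fit with the set term (open diamonds), with a ring around values with an edgeR adjusted p under 0.05. By group Trpv5 in MYC-OE against WT is the 1 ringed value, while the set term rings 3 genes in MYC-OE against WT and 6 in MYC-OE SETD2-KO against SETD2-KO, all below 0.

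Ratios within a library do not depend on how libraries are scaled against one another, and they parted the 9 genes into those that kept to Slc12a3 and those that did not. Per length, Klhl3 stood at 2.93% to 3.55% of Slc12a3 in MYC-OE SETD2-KO 1, 2 and 3 and MYC-OE 1, at 4.78% and 5.09% in MYC-OE 2 and 3, and at 3.46% to 5.01% in SETD2-KO and WT. Wnk4 stood at 9.31% to 15% of Slc12a3 in MYC-OE SETD2-KO, 14.5% to 21.5% in MYC-OE, 14% to 16.2% in SETD2-KO and 16.9% to 20.4% in WT. By contrast, Trpv5 stood at 3.05%, 2.8% and 6.71% of Slc12a3 in MYC-OE SETD2-KO 1, 2 and 3 and at 3.68%, 10.9% and 15% in MYC-OE 1, 2 and 3, against 2.54%, 2.8% and 3.83% in SETD2-KO and 2.19%, 2.37% and 2.16% in WT. The ratio was lowest in the WT libraries and highest in MYC-OE 2 and 3. Trpm6 relative to Slc12a3 stood at 1.57%, 1.77% and 12.2% in MYC-OE SETD2-KO, 1.42%, 6.95% and 9.65% in MYC-OE, 0.975%, 1.87% and 2.94% in SETD2-KO, and 1.28%, 1.3% and 1.82% in WT. That ratio was highest in MYC-OE SETD2-KO 3, followed by MYC-OE 3 and 2 and SETD2-KO 3, and lowest in SETD2-KO 1.

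**Figure D3:**
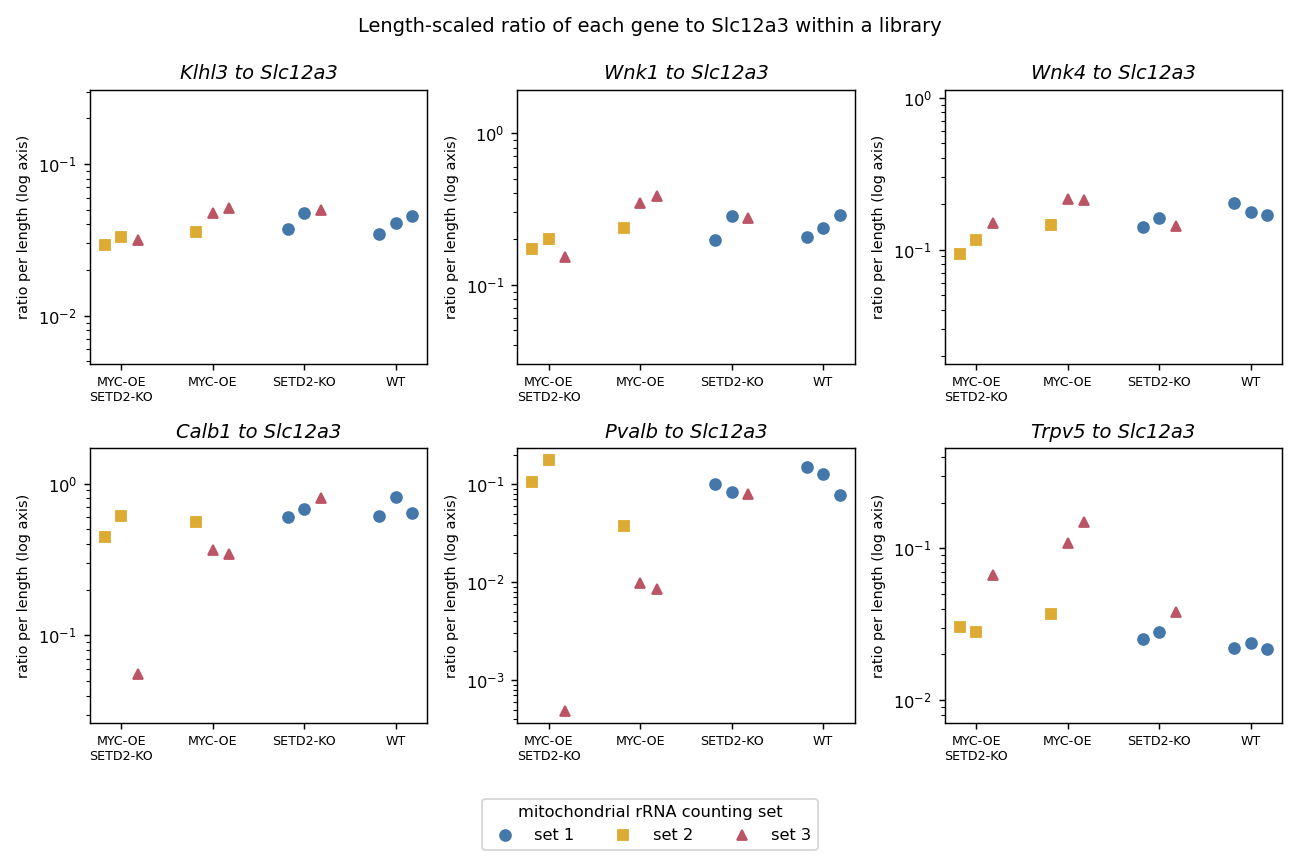
Ratio of 6 genes to Slc12a3 in the same library, from counts divided by the deposited isoform length (log axis, whose range differs between panels), by group, with marker shape and colour for the mitochondrial rRNA set. Klhl3 stays between 0.0293 and 0.0509 in all 12 libraries, while Trpv5 reaches 0.109 and 0.15 in MYC-OE 2 and 3 and Pvalb drops to 0.000479 in MYC-OE SETD2-KO 3.

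The calcium genes did not keep to one another. Trpv5 relative to Calb1, per length, stood at 6.86%, 4.6% and 120.3% in MYC-OE SETD2-KO 1, 2 and 3, 6.6%, 29.9% and 43.9% in MYC-OE 1, 2 and 3, 4.23%, 4.11% and 4.79% in SETD2-KO, and 3.58%, 2.92% and 3.41% in WT. The channel therefore outweighed its carrier in 1 library, MYC-OE SETD2-KO 3, and SETD2-KO 3, of the same set, lay with the other SETD2-KO libraries. Calb1 relative to Slc12a3 was 5.58% in MYC-OE SETD2-KO 3, 36.4% and 34.2% in MYC-OE 2 and 3, and 44.5% to 81.3% in the other 9 libraries. Calb1, Trpv5 and Slc8a1 are also genes of the connecting tubule, so levels of the 3 in bulk cells do not belong to the distal convoluted tubule alone.

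The likeness to Slc12a3 over libraries was measured as the SD of the log2 ratio between a gene and Slc12a3 in the 12 libraries, for 12494 genes with a mean log2 CPM of at least 1. The median over these genes was 0.84. The 5 genes closest to Slc12a3 among non-members were Acss1 (0.23), Esm1 (0.26), Bmp6 (0.28), Dusp28 (0.30) and Klf1 (0.31). Of the members, Klhl3 was as close at 0.28, with 2 non-members closer, then Wnk4 at 0.36 with 17 closer and Wnk1 at 0.40 with 50 closer. Trpv5 (0.93), Slc8a1 (1.01), Calb1 (1.04), Trpm6 (1.23) and Pvalb (2.11) were farther than the median gene. Closest to Wnk1 were Iqsec1 (0.21), Stard8 (0.21), Iqsec2 (0.22), Sh3d21 (0.23) and Idh2 (0.23), and Klhl3 was closer to it than any of the 12494 genes at 0.18. Libraries of set 3 carry part of this: over the 8 libraries of sets 1 and 2, the SD between Klhl3 and Wnk1 was 0.10 with 6 genes closer, that between Klhl3 and Slc12a3 0.23 with 547 closer, and that between Wnk4 and Slc12a3 0.36 with 3722 closer. Levels over these libraries share depth, set and cell makeup, so closeness is a description of the 12 libraries.

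Genes around these 9 were read from 4 lists that cover the WNK cascade, distal magnesium transport, distal calcium transport and the identity of the segment. Of their 57 genes 55 were tested. In MYC-OE against WT 1 was called higher and 1 lower, beside 7.99% of all genes tested in either direction. None was called in the other comparisons of the fit by group. The gene called higher was Trpv6, the calcium channel most closely related to Trpv5, at 3.32, 28.1 and 37.2 CPM in MYC-OE 1, 2 and 3 against 0.782, 1.15 and 1.28 CPM in WT. On the log2 scale it rose by 4.41 ± 0.91 (adjusted p = 0.0407, edgeR). Trpv6 was called with the set term too (4.71, edgeR adjusted p = 0.0139), and lost its call without any single library of the 2 groups other than MYC-OE 1 (edgeR adjusted p between 0.122 and 0.159). In those fits between 1 and 3 of all genes tested were called. MYC-OE 1 lay above WT as well, but far below MYC-OE 2 and 3. Without the libraries of set 3 the value was 1.67, from MYC-OE 1 of set 2 against WT of set 1. MYC-OE SETD2-KO held 3.08, 2.78 and 14.1 CPM of Trpv6, and SETD2-KO 2.43, 2.76 and 2.73 CPM. The gene called lower was Oxsr1, which encodes OSR1, the kinase that with SPAK passes the WNK signal to NCC. Oxsr1 stood at 50.9, 43.2 and 39.9 CPM in MYC-OE against 62.1, 66.3 and 70.4 CPM in WT and, on the log2 scale, fell by 0.57 ± 0.15 (adjusted p = 0.0486, edgeR). Oxsr1 turned to 0.18 with total-count scaling and was not called with the set term (-0.33, edgeR adjusted p = 0.505) or without any single library other than MYC-OE 1 (edgeR adjusted p between 0.134 and 0.165). The fits with a library left out were the same as for Trpv6. Stk39, which encodes SPAK, was chosen here for its partner after its values were seen. It stood at 46.6, 59.5 and 54.0 CPM in MYC-OE against 26.0, 23.3 and 30.7 CPM in WT, with no call (log2 fold change 1 ± 0.52, edgeR adjusted p = 0.185). These groups did not overlap, as was the case in this direction for 25.5% of the genes tested. With the set term the value was 0.07 (edgeR adjusted p = 0.98). SETD2-KO 3 and MYC-OE SETD2-KO 3, also of set 3, held 64 and 83.6 CPM.

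By list, the fit by group in MYC-OE against WT gave 0 higher and 1 lower of 22 genes of the WNK cascade (median log2 fold change -0.10), 0 of 12 for magnesium (-0.57), 1 higher of 13 for calcium (-0.54) and 0 of 9 for identity (0.02), beside a median of 0 over all genes. In that comparison 7.99% of all genes tested were called. Of the 3 genes with the highest mean level in each list, none passed by group. Among them Kcnj16, a subunit of the basolateral potassium channel, had a log2 fold change of -1.46 ± 0.69 (edgeR adjusted p = 0.151). Egf, a precursor of the growth factor that acts on TRPM6, had -1.42 ± 1.01, and Umod, the major protein of the thick ascending limb, 0.58 ± 0.51. Kl, the co-receptor for FGF23, had -1.55 ± 1.06, and S100g, a small calcium carrier, -0.86 ± 0.41, while Klk1, a kallikrein of the distal nephron, had 0.54 ± 0.97. With the set term MYC-OE SETD2-KO against SETD2-KO gave 18 lower and 1 higher of the 55, Trpv6 being the higher one. Of all 17019 genes tested, 5.75% were called lower there and 528 genes higher. Egf (-4.48, edgeR adjusted p = 0.0102), Kl (-3.26, edgeR adjusted p = 0.019) and Klk1 (-3.20, edgeR adjusted p = 0.00737) were among the lower of the 55.

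Markers of other cells differed between the same libraries. The 8 proximal tubule markers summed to 449.5 to 15554 CPM in MYC-OE SETD2-KO and 1574 to 10567 CPM in MYC-OE, against 8206 to 20168 CPM in SETD2-KO and 16783 to 19285 CPM in WT. The 5 macrophage markers that were found summed to 34.3 to 90.0 CPM in MYC-OE SETD2-KO, 82.3 to 435 CPM in MYC-OE, 19.4 to 112 CPM in SETD2-KO and 18.7 to 22.2 CPM in WT. Of these 5, 4 were called higher in MYC-OE against WT, as were 2 of 6 fibroblast and mural markers, 3 of 6 lymphocyte markers and 2 of 6 intercalated cell markers, beside 5.62% of all genes tested. None of the 8 proximal tubule, 6 thick ascending limb, 7 connecting tubule and principal cell, 5 podocyte or 6 endothelial markers was called there, and in the fit by group no marker of any list was called in the other comparisons. With the set term, MYC-OE against WT gave 1 macrophage, 1 fibroblast and mural and 1 lymphocyte marker higher, and no intercalated cell marker. It gave 1 proximal tubule and 1 connecting tubule and principal cell marker lower. The 9 distal convoluted tubule genes summed to 915 to 2769 CPM in MYC-OE SETD2-KO, 687 to 2506 CPM in MYC-OE, 1929 to 2617 CPM in SETD2-KO and 1767 to 2398 CPM in WT. MYC-OE 2 and 3 and MYC-OE SETD2-KO 3 held the lowest sums of both the distal convoluted and the proximal tubule genes. Thick ascending limb markers, from the segment just upstream, summed to 1989.9 to 3183 CPM in MYC-OE SETD2-KO, 4239 to 5944 CPM in MYC-OE, 2349 to 7620.4 CPM in SETD2-KO and 2898 to 4205 CPM in WT. The part of other cells in the values of the 9 genes was not tested.

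**Figure D4:**
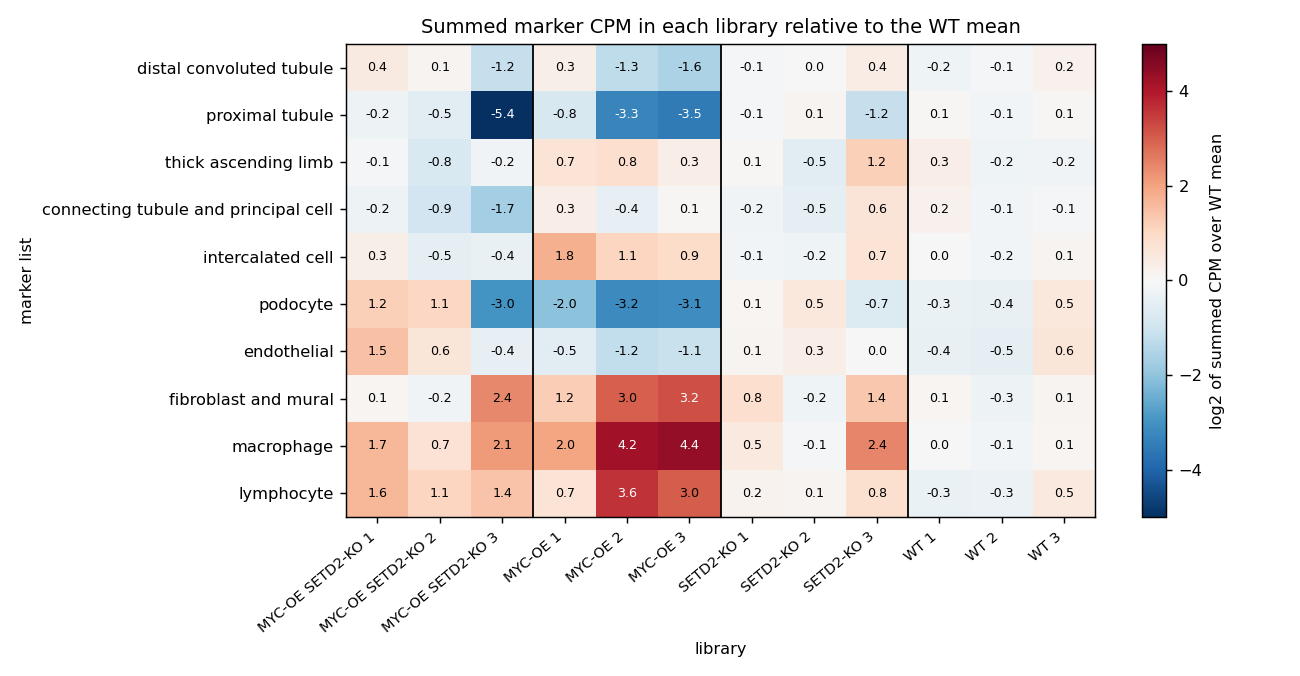
Log2 of the summed CPM of each marker list in each of the 12 libraries over its WT mean, with lists as rows and libraries as columns. MYC-OE 2 and 3 and MYC-OE SETD2-KO 3 read -1.26, -1.57 and -1.16 for the distal convoluted tubule genes and -3.31, -3.55 and -5.36 for the proximal tubule markers, while macrophage markers read 4.21, 4.39 and 2.12.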

How the data were processed

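Poly(A) RNA was sequenced from both ends with a directional kit, per the labels' protocols. The authors deposited 1 table of raw read counts for each gene, in whole numbers, with each gene's GRCm38 position and its isoform length in bases, which was used to compare levels between genes. Per the submitters' processing notes, HISAT2, StringTie, FastQC, Trimmomatic 0.35, cutadapt 1.9.1 and MACS2 2.1.1 were used, in roles not stated, with the builds GRCm38 and mm10. Not given in the sources used here are the counting program, its strand setting and the annotation. Counts were tested as deposited with edgeR 4.0.16 in R 4.3.3: filterByExpr (17019 of 44792 genes kept), TMM scaling, the quasi-likelihood test with 1 coefficient per group over all 12 libraries (8 residual degrees of freedom, or 6 once the set term is added), and Benjamini-Hochberg adjustment over all genes tested, with calls at an adjusted p under 0.05. The set term divides libraries at 10000 and 100 CPM of mitochondrial ribosomal RNA. Tested on simulated data, the fit returned the size of known changes, but at the spread of these libraries most of the smaller ones were not called. Alternatives were DESeq2 1.42.0, limma-voom (limma 3.58.1), RLE and total-count scaling, no filter, the 2 groups alone, a replicate block, no set 3 and each library left out. P-values weigh a difference against the spread between libraries of the same group, pooled over the 4 groups. By group, that spread takes in differences of set within MYC-OE SETD2-KO, MYC-OE and SETD2-KO. It also takes in differences of sex within MYC-OE SETD2-KO and SETD2-KO. The text names all 9 members, pathway genes called by group, at most 3 others per list by mean level, and the 5 genes most like Slc12a3 and Wnk1. Members and lists were chosen with earlier results of these data known. No per-sample column was left unused (0). Promoter windows are from RefSeq, and 8 of the 9 members matched.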

Additional observations from a re-analysis of the deposited data

How the results depend on the processing

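The fit by group was set against 9 other settings and against fits without each library in turn. Calls on Trpv5, Trpv6 and Oxsr1 in MYC-OE against WT lay close to the threshold, and the treatment of set 3 and of scaling turned many directions. With 3 libraries a group, a spread such as that of Slc12a3 within MYC-OE (4.02 times between MYC-OE 1 and the mean of 2 and 3) limits what a comparison can detect. Directions of the 9 genes between genotypes are therefore given with the settings that turn them, and the cause of each turn was not tested.

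Scaling by total counts alone moved the median of all genes by 0.76 on the log2 scale in MYC-OE against WT, 0.22 in SETD2-KO against WT, -0.38 in MYC-OE SETD2-KO against MYC-OE, 0.15 in MYC-OE SETD2-KO against SETD2-KO and -0.61 in the interaction. It called 5048 genes in MYC-OE against WT (4816 higher and 232 lower, where the TMM scaling had 957 and 402), 15 in MYC-OE SETD2-KO against MYC-OE and 1 in the interaction, and 9 genes of the pathway lists in MYC-OE against WT. In MYC-OE against WT it turned Slc12a3 to 0.03, Slc8a1 to 0.07, Wnk1 to 0.25, Klhl3 to 0.05 and Oxsr1 to 0.18. Wnk4 turned to 0.02 in SETD2-KO against WT, and Wnk1 to -0.16 and Wnk4 to -0.06 in MYC-OE SETD2-KO against MYC-OE. In the interaction it turned Trpm6 to -0.26, Calb1 to -0.06, Wnk1 to -0.53, Wnk4 to -0.09 and Klhl3 to -0.36.

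DESeq2 called 57 genes in SETD2-KO against WT, 4492 in MYC-OE against WT, 765 in MYC-OE SETD2-KO against MYC-OE, 172 in MYC-OE SETD2-KO against SETD2-KO and 268 in the interaction. The edgeR counts were 0, 1359, 30, 0 and 2. DESeq2 gave no p for Calb1 in any comparison, and it called 9 and 2 pathway genes in MYC-OE against WT and in MYC-OE SETD2-KO against MYC-OE. The limma-voom fit called 691, 6 and 1 genes in MYC-OE against WT, MYC-OE SETD2-KO against MYC-OE and the interaction, called 0 pathway genes in MYC-OE against WT, and turned Pvalb to -2.65 in MYC-OE SETD2-KO against SETD2-KO. RLE scaling left 1 pathway gene called in MYC-OE against WT. Without the filter on low counts 0 members and 1 pathway gene were called there. With the 2 groups compared fitted alone, 4982 genes and 9 pathway genes were called in MYC-OE against WT and 0 genes in MYC-OE SETD2-KO against MYC-OE.

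The replicate numbers gave no steady pairing of the libraries. Deviations from the group means correlated at -0.02 to 0.55 among libraries numbered 1 and at -0.60 to 0.55 among those numbered 2. Among those numbered 3, all of set 3 except WT 3, they correlated at 0.05 to 0.68. A replicate block called 2279 genes in MYC-OE against WT, 17 in MYC-OE SETD2-KO against MYC-OE and 1 in the interaction, and turned Pvalb to -0.13 in MYC-OE SETD2-KO against SETD2-KO.

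The set term called 407 genes in MYC-OE against WT, 938 in MYC-OE SETD2-KO against MYC-OE, 1506 in MYC-OE SETD2-KO against SETD2-KO and 18 in the interaction. It called 3 members in MYC-OE against WT and 6 in MYC-OE SETD2-KO against SETD2-KO, and 4, 5 and 19 pathway genes in MYC-OE against WT, MYC-OE SETD2-KO against MYC-OE and MYC-OE SETD2-KO against SETD2-KO. In SETD2-KO against WT it turned Trpm6 to -0.07, Calb1 to -0.08, Slc8a1 to -0.22 and Wnk1 to -0.03, and in MYC-OE against WT Trpm6 to -0.22. Calb1 turned to -0.81 and Wnk1 to -0.24 in MYC-OE SETD2-KO against MYC-OE, and Slc12a3 to -1.11, Pvalb to -4.60 and Trpv5 to -0.12 in MYC-OE SETD2-KO against SETD2-KO. In the interaction Calb1 turned to -0.73 and Wnk1 to -0.21.

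Without the libraries of set 3, 2946 genes were called in MYC-OE against WT, 707 in MYC-OE SETD2-KO against MYC-OE, 1336 in MYC-OE SETD2-KO against SETD2-KO and 166 in the interaction. Members called numbered 2, 1, 1 and 1 in these comparisons, and pathway genes 11 in MYC-OE against WT, 3 in MYC-OE SETD2-KO against MYC-OE and 1 in the interaction. In SETD2-KO against WT Trpm6 turned to -0.06, Calb1 to -0.06, Slc8a1 to -0.21 and Wnk1 to -0.01. In MYC-OE against WT Slc12a3 turned to 0.44, Calb1 to 0.15, Slc8a1 to 0.31, Wnk1 to 0.39, Wnk4 to 0.12 and Klhl3 to 0.25. In MYC-OE SETD2-KO against MYC-OE Wnk1 turned to -0.22, Wnk4 to -0.35 and Klhl3 to -0.04, and in MYC-OE SETD2-KO against SETD2-KO Calb1 turned to 0.25, Slc8a1 to 0.02, Wnk1 to 0.19, Wnk4 to 0.01 and Klhl3 to 0.11. In the interaction Wnk1 turned to -0.20, Wnk4 to -0.11 and Klhl3 to -0.14. Without set 3, a MYC group against WT or SETD2-KO compares set 2 with set 1.

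With 1 library left out at a time, calls over all genes ran between 0 and 0 in SETD2-KO against WT, between 1 (without MYC-OE 3) and 4422 (without MYC-OE 1) in MYC-OE against WT, between 3 and 578 in MYC-OE SETD2-KO against MYC-OE, between 0 and 411 in MYC-OE SETD2-KO against SETD2-KO and between 0 and 31 in the interaction. Members called ran between 0 and 4 in MYC-OE against WT and between 0 and 1 in MYC-OE SETD2-KO against MYC-OE, and pathway genes between 0 and 12 and between 0 and 1. In SETD2-KO against WT the ranges that crossed 0 were -0.07 to 0.80 for Trpm6, -0.08 to 0.20 for Calb1, -0.22 to 0.41 for Slc8a1 and -0.03 to 0.36 for Wnk1, the low end each time being without SETD2-KO 3. In MYC-OE SETD2-KO against MYC-OE they were -0.16 to 0.14 for Trpv5, -0.72 to 0.58 for Slc8a1, -0.09 to 0.83 for Wnk1 and -0.02 to 0.91 for Wnk4. In MYC-OE SETD2-KO against SETD2-KO they were -0.18 to 0.47 for Slc12a3, -0.02 to 1.12 for Pvalb, -0.90 to 0.03 for Calb1 and -0.64 to 0.01 for Wnk1. In the interaction they were -0.48 to 0.91 for Trpm6, -0.85 to 0.43 for Slc8a1, -0.20 to 0.70 for Wnk1 and -0.04 to 0.93 for Klhl3.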

Other observations

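Outside the comparisons, 2 genes of the lists used here differed by at least 20-fold between every library of set 3 and every library of set 1, and both were picked after their values were seen. Sgk1, a kinase induced by aldosterone that acts on sodium transport, stood at 56 to 187 CPM in set 3, 0.211 to 0.884 CPM in set 2 and 0.176 to 0.391 CPM in set 1. Scnn1b, a subunit of the epithelial sodium channel, stood at 43.4 to 53.7 CPM in set 3, 1.39 to 4.54 CPM in set 2 and 0.116 to 0.328 CPM in set 1. Sgk1 overlaps 2 other loci of the table and Scnn1b overlaps 1. The other channel subunit on the lists, Scnn1g, did not split this way: it stood at 8.57 to 61 CPM in set 3, 25.7 to 54 CPM in set 2 and 33.9 to 42.3 CPM in set 1. By group it averaged 9.04 ± 6.34 CPM per kilobase in MYC-OE SETD2-KO, 12.3 ± 5.16 in MYC-OE, 14.8 ± 5.01 in SETD2-KO and 13.7 ± 0.915 in WT (SD, n = 3 each). Of the 9 members none overlaps a locus with more than 16 counts in any library.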
